A study of Arabidopsis thaliana with 60 samples.

Results

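Leaf senescence is the last stage of leaf life, in which chlorophyll and proteins are broken down and nitrogen, phosphorus and other nutrients are moved to growing organs and seeds. Many genes are switched on in a senescing leaf, and those whose expression rises there are called senescence-associated genes. The genes described here were highest in senescing leaves of Arabidopsis thaliana and carry no gene symbol in the array's annotation, only an AT-locus identifier. They numbered 77, each read by 1 probe set (a group of short oligonucleotides that measures 1 transcript), among 11933 probe sets named in this way and 22746 probe sets in all, control probe sets left out. They were chosen from the readout. The signal of each probe set was averaged over the 3 arrays of each of 20 sets, 6 was added and the log2 taken. A member had its senescing value at least 1.5 above the highest of the other 19 sets, and a mean signal of 50 or more in senescing leaves.

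All 60 arrays were 1-colour Affymetrix ATH1 type arrays hybridised with biotin-labelled total RNA, 3 for each set. Senescing leaves, cauline leaves (the leaves of the flowering stem), cotyledons, leaves 1 + 2, leaf 4 at a length of 1 cm, rosette leaves 2, 4, 6, 8, 10 and 12, and the petiole, distal and proximal parts of leaf 7 came from Col-0 plants on soil in continuous light at 23 °C and 65% humidity. The 6 rosette leaves were taken when leaf 12 was about 1 cm long, so leaf 2 was the oldest and leaf 12 the youngest, and the labels note soil on the 1 cm leaf 4 of Col-0. Leaf 4 at 1 cm and leaf 12 were also taken from gl1T plants, whose background is given as Col-0 for leaf 12, in the same growth conditions. GL1 is the MYB factor that starts leaf hairs. No genotype check was made here. The other sets were Col-0 vegetative rosettes in short days of 10 h light and 14 h dark at 22 °C (sets 87 and 89 on soil, set 90 with no substrate given) and Col-0 leaves in long days on MS medium with 1% sucrose at 22 °C. The labels give no age or stage of the senescing leaves beyond the name of the tissue, and do not say that the 3 arrays of a set were separate plants, so p-values measure the spread between these arrays, which may be technical. In whole leaves a change in the share of a cell type and a change in RNA per cell cannot be told apart.

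The arrays were on a common scale, with a median signal of 32.2 to 40.03, and arrays of 1 set correlated at 0.982 or more on the log2 scale. The senescing arrays stood apart from all other sets: their highest correlation with an array of another set was 0.922 to 0.923, against 0.945 to 0.952 for cauline leaves. Ubiquitin control probe sets at the 3' and 5' ends of the transcript give a ratio that reports how complete the labelled RNA was, and this ratio differed between sets in an order much like that of the members. It averaged 1.66 in senescing leaves, 2.05 in cauline leaves, 2.51 in leaf 2 and 2.59 in cotyledons, and 3.88 in leaf 12, 3.85 in leaf 4 at 1 cm and 3.30 in leaves 1 + 2. Its part in the results was not tested. The actin ratio did not follow that order, at 10.3 in senescing leaves, 8.27 in cauline leaves, 5.76 in leaf 2 and 7.33 in leaf 12.

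Genes with a known place in senescence, measured on the same arrays, were used to check the label. Against the mean of rosette leaves 2 to 12, 3 of 4 measured senescence regulators and senescence-associated genes were called higher in senescing leaves (limma, Benjamini-Hochberg adjusted p below 0.05 and a log2 difference of at least 1, the rule used throughout; 33.2% of all 15803 tested probe sets were called in this comparison). They were the WRKY transcription factors WRKY6 (log2 difference 2.71 ± 0.14, SE) and WRKY53 (1.68 ± 0.06) and the sugar transporter SAG29 (1.45 ± 0.21). SAG29 was higher than the rosette mean but not than the oldest leaf, at a mean of 51.7 in senescing leaves against 280.7 in leaf 2. The lipase-like SAG101 differed by 0.52 ± 0.12 and was not called. NOL was the only gene measured from the list of chlorophyll breakdown genes. It differed by 0.87 ± 0.08 and was not called. PPDK, the pyruvate phosphate dikinase that serves nitrogen remobilization, was higher by 2.90 ± 0.08, and 7 of 12 probe sets for autophagy genes were higher, among them ATG8A (2.11) and ATG8B (2.48). Of 9 photosynthesis and chlorophyll synthesis genes, 8 were lower, led by PORB (-3.59), CHLM (-3.35) and PSAN (-2.85). Marker genes of pathogen response, seed and flower were not among the named probe sets, and no root marker passed the filter on low signal, so the presence of those was not measured.

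The annotation says little of the 77 genes. RefSeq (assembly TAIR10.1) lists 75 of them as protein coding and 2, AT2G04460 and AT2G06480, as pseudogenes. It gives a product name among the synonyms of 1, AT4G33150, the bifunctional lysine-ketoglutarate reductase/saccharopine dehydrogenase of lysine breakdown. No name or role is given here for the other 76. Few members lay close together. AT1G26380 and AT1G26390 were adjacent protein-coding genes, AT1G26420 followed AT1G26390 after 2 other genes, and 2 genes lay between AT1G51860 and AT1G51890 and between AT4G16640 and AT4G16670.

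The margin of senescing leaves over the highest other set ranged from 1.51 to 4.79 with a median of 1.99 on the log2(signal + 6) scale, or 2.85- to 27.6-fold with a median of 3.97-fold. It was 2 or more in 38 members and 3 or more in 9. All of this chose the members, so it is given as a description with no test, as is the count of members called in the comparison of senescing leaves with rosette leaves (77 of 77, median 3.14). Mean signal in senescing leaves ran from 51.2 to 2312 with a median of 181.0. In all 77 members each of the 3 senescing arrays was above each of the 57 other arrays. The margin that the rule sets between set means makes this likely, so it too is a description only. The 3 senescing arrays differed little, with a coefficient of variation between 0.7% and 26.5% and a median of 5.6%. Just inside the margin lay AT3G13950 (1.51), AT1G26420 (1.53) and AT1G61420 (1.54), and just outside it AT3G27210 (1.49), AT2G31990 (1.47) and AT1G28190 (1.46), so the line does not fall at a gap.

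**Figure D1:**
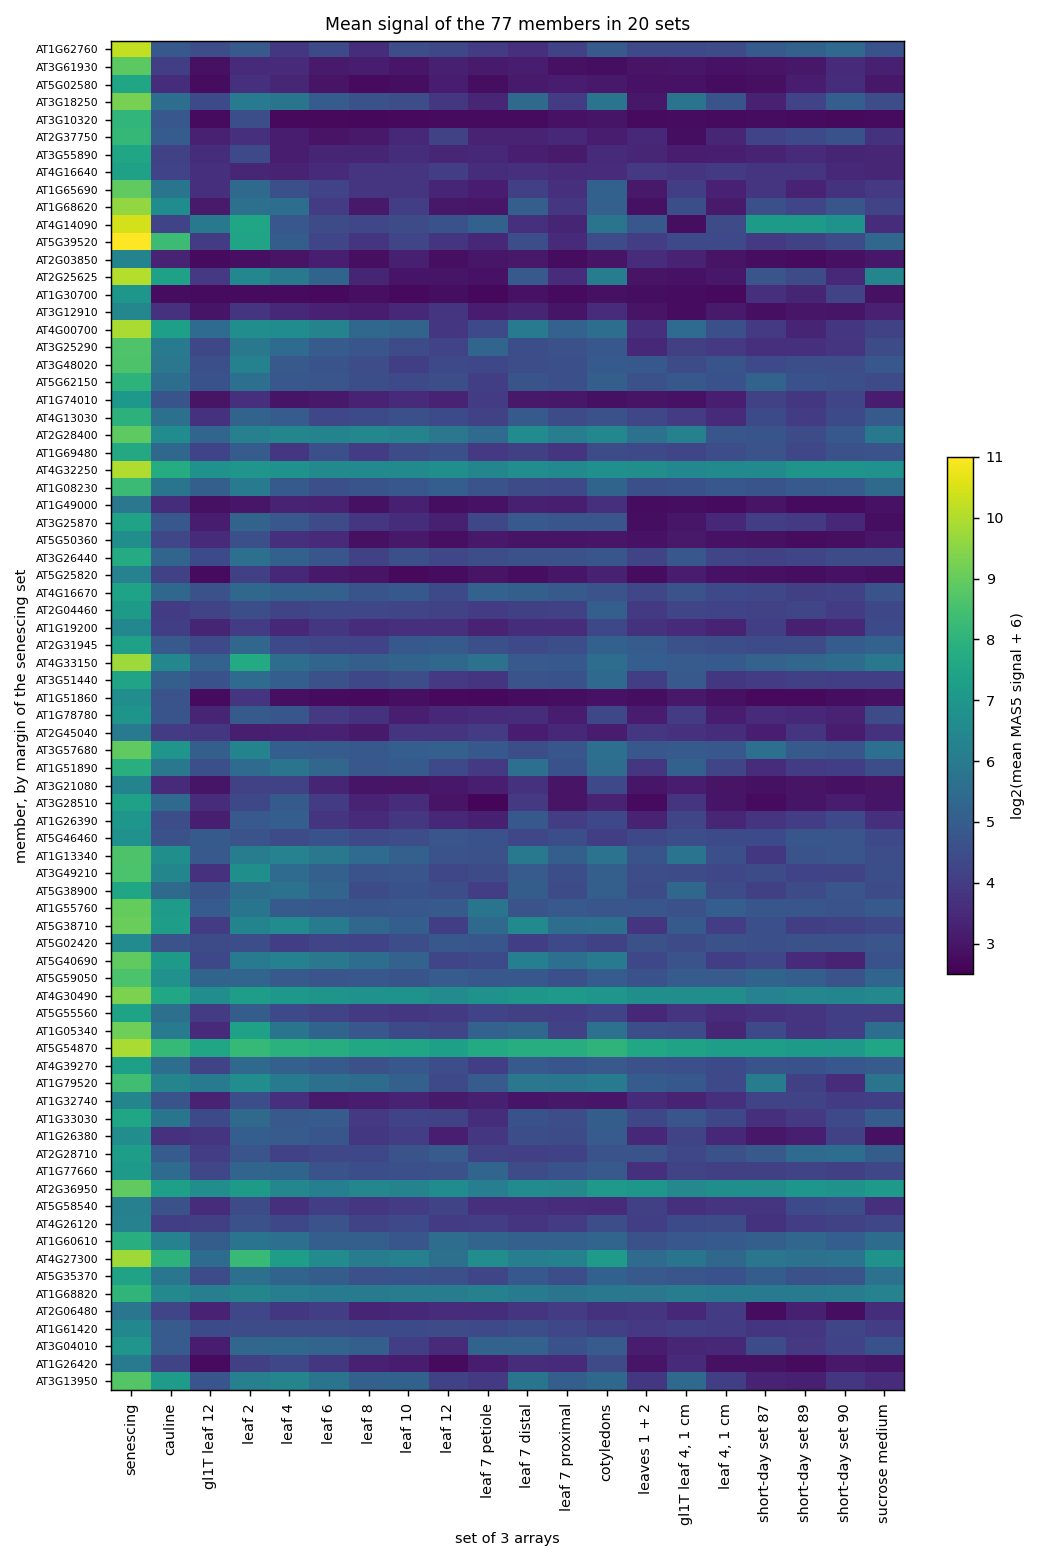
Mean signal of the 77 members (rows, largest margin at the top) in the 20 sets of 3 arrays (columns); colour is log2(mean MAS5 signal + 6). The senescing column is the brightest in every row, and many rows are also brighter in cauline leaves and leaf 2 than in leaf 12.

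AT1G62760 and AT3G61930 had the widest margins (4.79 and 4.78). AT1G62760 read 1200, 1194 and 1127 on the senescing arrays, and its next set was the short-day set 90 with 42.6, 40.8 and 26.9. In the other 18 sets its mean signal was between 6.18 and 29.3. AT3G61930 read 419, 464 and 487 on the senescing arrays, against 12.2, 12.0 and 8.25 on the cauline arrays that came next. Neither gene was called in any of the 8 comparisons below, which use no senescing array. AT5G02580 (margin 3.87) had a like profile, with 154, 198 and 185 in senescing leaves against 8.00, 4.84 and 7.17 in leaf 2, its next set. AT3G55890 (3.17) averaged 181 in senescing leaves and 14.8 in leaf 2, and AT4G16640 (3.15) averaged 157 in senescing leaves and 12.4 in cauline leaves.

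AT3G18250 (margin 3.29) read 582, 672 and 554 in senescing leaves, against 52.6, 49.0 and 67.2 in leaf 2, and its lowest mean was 2.34 in leaves 1 + 2. AT1G65690 (3.12) averaged 480.1 ± 26.4 (SD, n = 3) in senescing leaves and 49.8 ± 8.54 in cauline leaves. AT1G68620 (2.97) read 786, 767 and 781 in senescing leaves, against 100.2, 82.3 and 99.0 in cauline leaves. AT3G10320 (3.26) averaged 265 ± 9.88 in senescing leaves, 22.3 ± 10.1 in cauline leaves and 17.4 ± 5.49 in leaf 2. In every other rosette leaf AT3G10320 averaged 0.75 or less. AT2G37750 (3.18) averaged 277 ± 36.5 in senescing leaves and 25.2 ± 6.98 in cauline leaves.

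The brightest member was AT5G39520 (margin 2.87), with 2152, 2248 and 2535 in senescing leaves. It read 362, 278 and 296 in cauline leaves and 178, 169 and 160 in leaf 2, and its mean was 33.4 or lower in the other 17 sets. AT4G14090 (2.92) read 1466, 1392 and 1358 in senescing leaves, against 176, 173 and 194 in leaf 2. It was also high in all 3 short-day sets, with means of 133, 133 and 108, while cauline leaves averaged 12.4. The margin of AT2G25625 was 2.71, with 1060, 1111 and 1014 in senescing leaves against a mean of 157 ± 26.7 in cauline leaves. AT4G32250 averaged 1019 ± 13.3 in senescing leaves and 209.5 ± 36.9 in cauline leaves, and AT5G54870 averaged 957 ± 22.5 in senescing leaves and 285 ± 27.8 in cauline leaves. AT4G32250 and AT5G54870 had no low set at all, with lowest means of 79.5 and 127, unlike AT2G25625, whose lowest mean was 1.51. AT4G33150, the lysine-breakdown enzyme, averaged 849 ± 38.5 in senescing leaves, 203 ± 13.8 in leaf 2 and 80.9 ± 5.30 in cauline leaves.

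**Figure D2:**
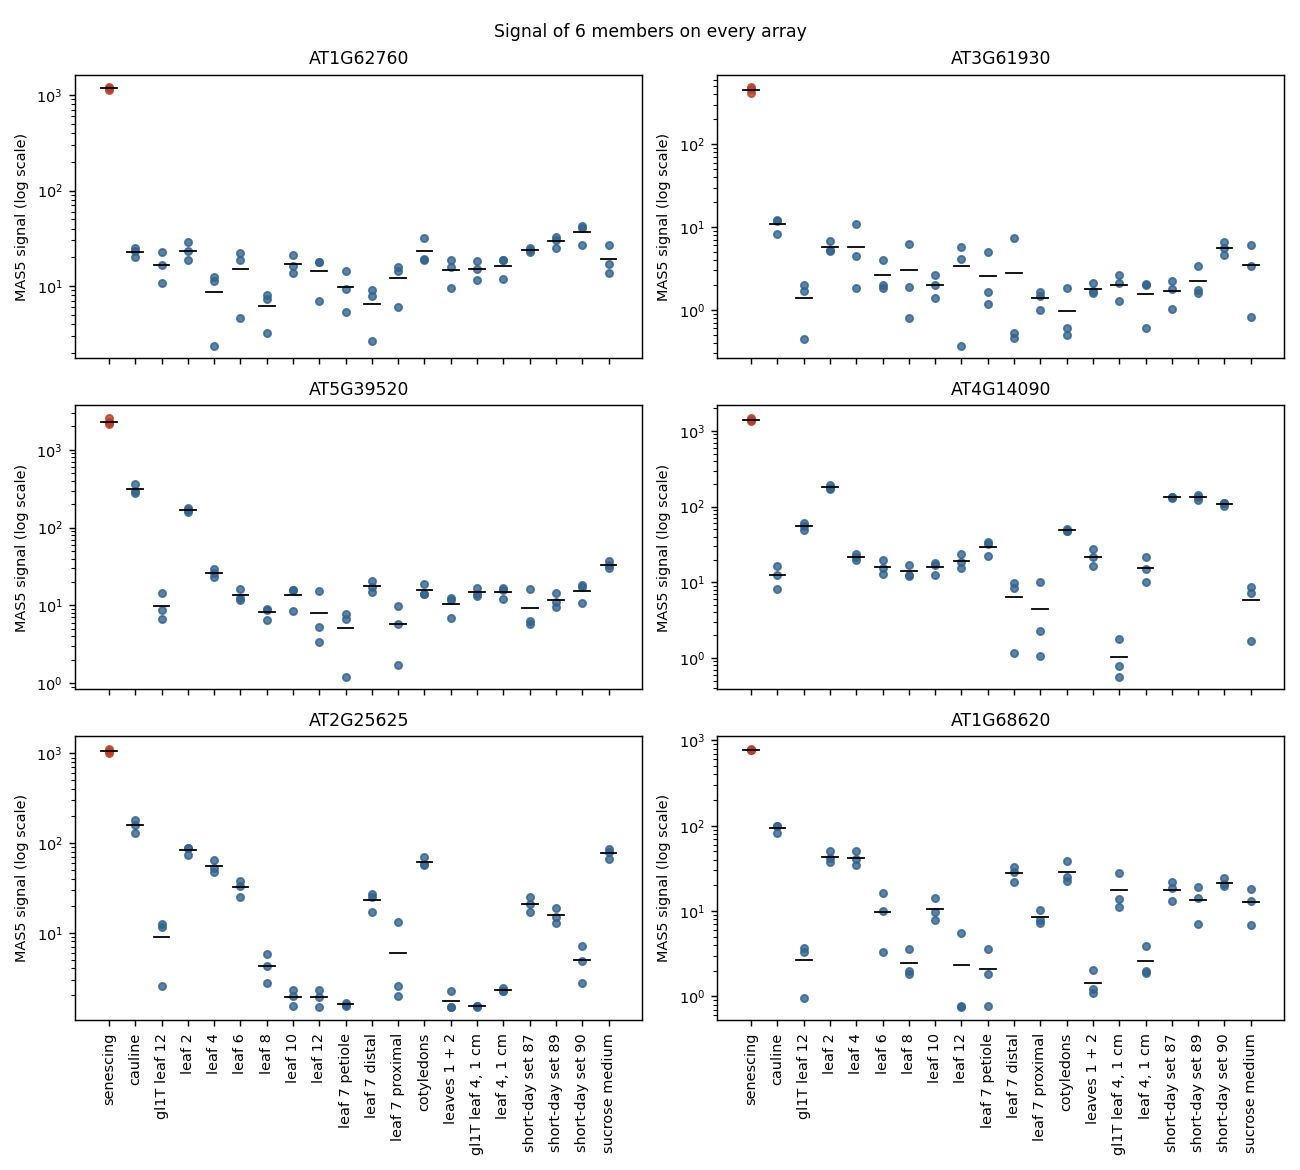
MAS5 signal (log axis) on each of the 60 arrays for 6 members; points are arrays, bars are set means, and senescing arrays are red. AT1G62760 and AT3G61930 are far higher in senescing leaves than in any other set, while AT5G39520, AT2G25625 and AT1G68620 are also raised in cauline leaves and leaf 2, and AT4G14090 in leaf 2 and the short-day sets but not in cauline leaves.

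For most members the highest set after senescing leaves was cauline leaves (40 members) or leaf 2 (22), together 62 of 77. Cotyledons were next for 4, short-day set 90 for 3 and rosette leaf 4 for 3, and 5 other sets for 1 member each. The median signal over the members was 178 to 192 on the senescing arrays, 32.1 to 35.1 on the cauline arrays, 31.1 to 34.3 on the leaf 2 arrays and 21.4 to 21.5 on the cotyledon arrays. In leaf 12 it was 10.3 to 13.3 and in leaves 1 + 2 it was 9.51 to 12.3. These values are low for the arrays, whose 40th percentile of signal was 17.5 to 23.9, and 55 members had a mean under 17.5 in leaf 12, against 24 in leaf 2 and 20 in cauline leaves. All 77 members passed the filter on low signal (above the 40th percentile of its own array on every array of at least 1 set), but 26 of them did so only through the senescing set, among them AT3G61930, AT5G02580, AT3G55890, AT4G16640, AT3G10320, AT2G37750 and AT1G26420. Counts in the comparisons of leaf age, leaf type and position below are therefore also given for the 51 that passed in another set, except for cauline leaves against leaf 2 alone.

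Probe sets with a gene symbol that met the same numeric conditions numbered 22 of 1580 (1.39%), against 77 of 11933 locus-named ones (0.645%) and 129 of 8730 with no gene in the annotation (1.48%). The symbol-named ones with the largest margins were OCT1 (3.96), an organic cation transporter, PAP20 (3.88), a purple acid phosphatase, ADPG1 (2.86), a polygalacturonase of organ shedding, AtS40-3 (2.79) and the linker histone HIS1-3 (2.63). They went on with the anthocyanin glycosyltransferase UF3GT (2.41), the methyltransferase CCOAMT (2.20), the gibberellin receptor GID1B (2.19), the vacuolar processing enzyme BETA-VPE (1.97) and the anthocyanin enzyme DFR (1.90). Their median margin was 1.82, that of the locus-named members 1.99 and that of the probe sets with no gene 2.08. The next set was cauline leaves for 12 of the 22 and leaf 2 for 4.

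The rule used the 19 other sets only through the highest of them, which caps how high a member can be there but does not fix the order of those sets. Differences between those sets could therefore be tested, in 1 fit over all 60 arrays and 15803 probe sets. The first comparison asked whether members were higher in old than in young rosette leaves, as the fitted span from leaf 2 to leaf 12 over the 6 rosette leaves. Members were higher in old leaves: 37 of 77 were called higher and 0 lower by limma, against 23.1% of all tested probe sets called in either direction, 11.5% higher and 11.6% lower. At an unadjusted p below 0.05, whatever the size, 59 members were higher and 5 lower. Counts at an unadjusted p, here and below, were not made over all tested probe sets, so they only describe the members. They include the 26 members that passed the filter only through the senescing set. Of the 51 members that passed the filter outside senescing leaves, 30 were called higher, with a median of 1.32. Under that filter 23.4% of all tested probe sets were called in either direction. The median span was 0.98 over the members and -0.01 over all tested probe sets, and 68 members lay above 0. Leaf 2 was the highest of the 6 rosette leaves for 55 members (71.4%), against 30.4% of all tested probe sets, and 10 members (13%) had a lower mean at each step from leaf 2 to leaf 12, against 8.13%. The ubiquitin ratio moved along with age (2.51 in leaf 2, 3.88 in leaf 12).

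AT2G25625 had the largest span, 4.03 ± 0.18 (SE; limma adjusted p = 1.18e-26). It read 73.3, 88.8 and 88.3 in leaf 2, 64.3, 53.1 and 47.8 in leaf 4, 25.04, 33.3 and 37.7 in leaf 6 and 5.86, 4.28 and 2.78 in leaf 8. From leaf 10 on it was at 2.30 or below on every array, so the old and young arrays did not overlap. Those youngest values are so low that the size of the span is set by the added constant, at 5.68 with 1 added and 2.29 with 24 added, and it was called with each. AT5G39520 (3.06 ± 0.20, adjusted p = 8.76e-20) was different in shape: it read 178, 169 and 160 in leaf 2 but only 23.0, 26.2 and 29.3 in leaf 4, and 15.2, 5.22 and 3.38 in leaf 12. AT1G05340 spanned 2.86 ± 0.21, with 154, 145 and 176 in leaf 2 and 12.6, 12.1 and 15.4 in leaf 12. AT4G00700 spanned 2.80 ± 0.17, with 103, 91.7 and 94.2 in leaf 2 and 3.62, 10.5 and 10.99 in leaf 12. AT4G00700 stayed near its leaf 2 level in leaf 4 (mean 92.9 ± 7.77), whereas AT1G05340 averaged 49.7 ± 5.09 there.

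Further members with high signal in old leaves were AT1G68620 (2.62), AT4G27300 (2.33), AT5G38710 (2.38) and AT4G14090 (2.24). AT4G27300 averaged 291 ± 4.56 in leaf 2, 143 ± 16.3 in leaf 4 and 44.2 ± 8.55 in leaf 12. The highest rosette leaf of AT5G38710 was leaf 4, not leaf 2, with 91.2, 89.3 and 90.6 against 61.8, 81.9 and 82.7. AT4G33150 was higher by 1.86 ± 0.13 (adjusted p = 2.92e-18), yet only leaf 2 stood out, at 199, 219 and 193, while leaves 4 to 12 averaged between 27.8 and 41.0. Not called were the bright AT5G54870, with means of 284, 235, 215, 185, 178 and 153 in leaves 2, 4, 6, 8, 10 and 12, and AT1G62760, AT3G61930 and AT5G02580, which were low in all 6. Named genes of senescence went different ways here: SAG29 (3.95), PPDK (4.35) and SAG101 (1.04) were called higher in old leaves. WRKY53 (0.51), WRKY6 (0.21) and NOL (-0.53) were not called.

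**Figure D3:**
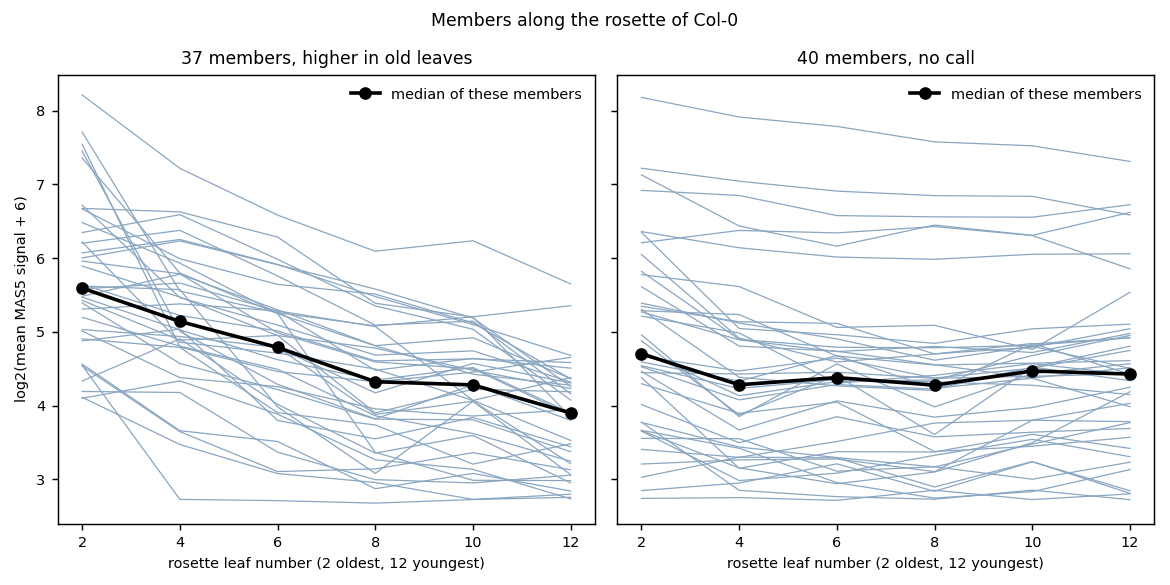
Members along the rosette of Col-0 by leaf number (2 oldest, 12 youngest); each line is 1 member, on log2(mean MAS5 signal + 6), and the black line is the median. The 37 members called higher in old leaves (left) fall towards leaf 12 in the median, and the 40 not called (right) stay near 1 level apart from a step between leaf 2 and leaf 4.

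Leaf 4 was sampled at 2 times, from the older rosette and when it was 1 cm long. Members were again higher in the later leaf: 28 were called higher and 0 lower by limma, against 24.5% of all tested probe sets in either direction, 12.9% higher and 11.6% lower. By unadjusted p below 0.05, 46 were higher and 6 lower. Of the 51, 25 were called higher, with a median of 0.90, against 24.9% of all probe sets tested under that filter in either direction. The medians were 0.57 over the members and -0.06 over all tested probe sets. AT2G25625 differed by 2.87 ± 0.21 (adjusted p = 1.85e-17), with 64.3, 53.1 and 47.8 in later leaf 4 and 2.44, 2.25 and 2.24 at 1 cm. AT5G38710 differed by 2.55 ± 0.15, with 91.2, 89.3 and 90.6 in later leaf 4 and 13.2, 10.4 and 8.20 at 1 cm. AT1G68620 (2.47 ± 0.25) and AT1G05340 (2.41 ± 0.25) also did not overlap between the ages. AT5G39520, so bright in leaf 2, was not among those called: it averaged 26.2 ± 3.13 in later leaf 4 and 14.9 ± 2.39 at 1 cm. The ubiquitin ratio was 2.63 in later leaf 4 and 3.85 at 1 cm, and the soil noted on the 1 cm leaves cannot be told apart from their age.

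For cauline leaves the comparison was with the 6 rosette leaves, taken as their mean. Of the 77 members, 25 were called higher and 0 lower by limma, against 14.7% of all tested probe sets in either direction, 7.13% higher and 7.59% lower. At an unadjusted p below 0.05, 65 were higher and 2 lower. Of the 51, 20 were called higher, with a median of 0.80, against 14.9% of all probe sets tested under that filter in either direction. The median was 0.72 over the members and 0.05 over all tested probe sets, and 73 members lay above 0. AT5G39520 differed most, by 3.55 ± 0.18 (adjusted p = 3.8e-24), followed by AT2G25625 (2.85 ± 0.16), AT1G68620 (2.44 ± 0.19) and AT1G55760 (2.16 ± 0.11). AT1G55760 read 135, 154 and 125 in cauline leaves and between 18.6 and 57.5 on every rosette leaf array, so its groups did not overlap. Against leaf 2 alone, the oldest rosette leaf, only 11 members were called, 7 higher and 4 lower (9.39% of all tested probe sets in either direction, 4.11% higher and 5.28% lower), and AT5G39520 (0.85) and AT2G25625 (0.86) were not among them. The ubiquitin ratio was 2.05 in cauline leaves and between 2.51 and 3.88 in the rosette leaf sets.

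That second comparison calls only differences of at least 1, so a member with no call is not shown to be equal in cauline leaves and leaf 2. AT5G39520, not called, averaged 311.9 in cauline leaves and 169.2 in leaf 2. AT5G59050 read 107, 91.04 and 117 in cauline leaves, against 29.2, 32.9 and 35.6 in leaf 2, a difference of 1.52 ± 0.17 (adjusted p = 2.81e-11). AT1G55760 (1.35), AT2G37750 (1.37), AT5G40690 (1.13), AT1G74010 (1.07), AT3G28510 (1.06) and AT1G68620 (1.02) were the others called higher in cauline leaves. Of these, AT2G37750 and AT1G74010 passed the filter only through the senescing set. The comparison with leaf 2 alone was not repeated for the 51 members that passed elsewhere. AT4G14090 went the other way, with 16.6, 8.13 and 12.4 in cauline leaves against 176, 173 and 194 in leaf 2, a difference of -3.37 ± 0.23 (adjusted p = 9.6e-19). The lysine-breakdown gene AT4G33150 (-1.27), AT1G05340 (-1.32) and AT1G26380 (-1.33) were also lower in cauline leaves than in leaf 2. The symbol-named SAG29 was lower too, by 1.29 against the rosette mean, whereas PPDK (2.43) and WRKY6 (1.74) were higher.

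Cotyledons were compared with leaves 1 + 2. Members were higher in cotyledons: 24 were called higher and 0 lower by limma, against 11.6% of all tested probe sets in either direction, 7.07% higher and 4.55% lower, with medians of 0.49 over the members and 0.00 over all. An unadjusted p below 0.05 was reached by 44 that were higher and 4 lower. Of the 51, 21 were called higher, with a median of 0.67, against 11.8% of all probe sets tested under that filter in either direction. AT2G25625 read 57.4, 69.6 and 59.0 in cotyledons and averaged 1.73 ± 0.43 in leaves 1 + 2, a difference of 3.13 ± 0.21 (adjusted p = 1.7e-18). AT3G18250 (2.71 ± 0.22) averaged 48.6 ± 8.68 in cotyledons and 2.34 ± 1.16 in leaves 1 + 2. AT1G68620 (2.20 ± 0.25) read 38.8, 22.3 and 25.2 in cotyledons and 1.21, 2.01 and 1.10 in leaves 1 + 2, and AT1G65690 (2.09 ± 0.21) read 28.6, 27.8 and 30.6 in cotyledons and 2.27, 4.54 and 0.31 in leaves 1 + 2. The leaves 1 + 2 values of these 4 are at or under the 20th percentile of an array (4.69 to 7.62), so the size of these differences depends on the 6 added to the signal. With 24 added in its place, called members were 19 in old leaves, 12 in later leaf 4, 11 in cauline leaves and 8 in cotyledons, all higher. Of all tested probe sets, 15.3%, 16.4%, 9.3% and 6.99% were then called in either direction. In later leaf 4 the share of members called, all of them higher, was thus no higher than the share of all tested probe sets called in either direction. With 24 added, the share of all tested probe sets called higher alone was not counted. The ubiquitin ratio was 2.59 in cotyledons and 3.30 in leaves 1 + 2.

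Within leaf 7 the members differed by position. Petioles against the blade (the mean of distal and proximal parts) gave 2 members higher and 8 lower by limma, against 6.99% of all tested probe sets in either direction, 4.14% higher and 2.85% lower, and the median was -0.11 over the members and 0.04 over all. The 10 called members were all among the 51, whose median was -0.265, and 7.08% of all probe sets tested under that filter were called. AT5G40690 read 10.3, 15.2 and 19.7 in petioles against 71.7, 70.2 and 57.9 in the distal and 43.5, 38.1 and 46.6 in the proximal part (-1.52 ± 0.15, adjusted p = 2.64e-12). AT3G13950 (-1.54 ± 0.23), AT1G68620 (-1.46 ± 0.22) and AT1G51890 (-1.24 ± 0.16) were also lower in petioles, with no overlap of the arrays. Higher in petioles were AT4G14090 (1.71 ± 0.20), with 22.2, 34.3 and 31.7 in petioles against 1.07 to 10.0 in the blade, and AT1G55760 (1.03 ± 0.12), with 45.1, 46.8 and 55.8 in petioles against 17.3 to 31.2 in the blade. With 24 added to the signal in place of 6, 0 members reached a log2 difference of 1 between petiole and blade, or between distal and proximal parts, so these calls depend on the added constant. Of all tested probe sets, 3.39% and 0.152% were then called. At an unadjusted p below 0.05 with 24 added, 11 members were higher and 26 lower in petioles, and 18 were higher and 0 lower in the distal part. These counts have no share of all tested probe sets beside them and do not replace the calls. The ubiquitin ratio was 3.56 in petioles and 2.96 and 3.05 in the distal and proximal parts.

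The distal part of the blade, the older end of a leaf, was compared with the proximal part. Of the 77 members, 5 were called higher and 0 lower by limma, in a comparison that called 0.639% of all tested probe sets in either direction, 0.405% higher and 0.234% lower. At an unadjusted p below 0.05, 19 were higher and 0 lower. AT3G18250 read 31.8, 40.1 and 41.0 in the distal part and 14.4, 3.56 and 11.8 in the proximal part (1.52 ± 0.22, adjusted p = 8.53e-07). AT2G25625 read 25.02, 17.2 and 27.3 in the distal part and 13.2, 2.56 and 1.96 in the proximal part (1.40 ± 0.21, adjusted p = 2.17e-06). AT1G05340 (1.28 ± 0.25), AT1G68620 (1.21 ± 0.25) and AT5G39520 (1.05 ± 0.24) made up the 5, and in all 5 the 3 distal arrays were above the 3 proximal ones. The 5 were also called when the filter left 51 members, whose median was 0.15, and 0.628% of all probe sets tested under that filter were called. The medians over all 77 members (0.09) and over all tested probe sets (0.02) lay close together. Without the proximal array of replicate 2, 8 members were called.

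**Figure D4:**
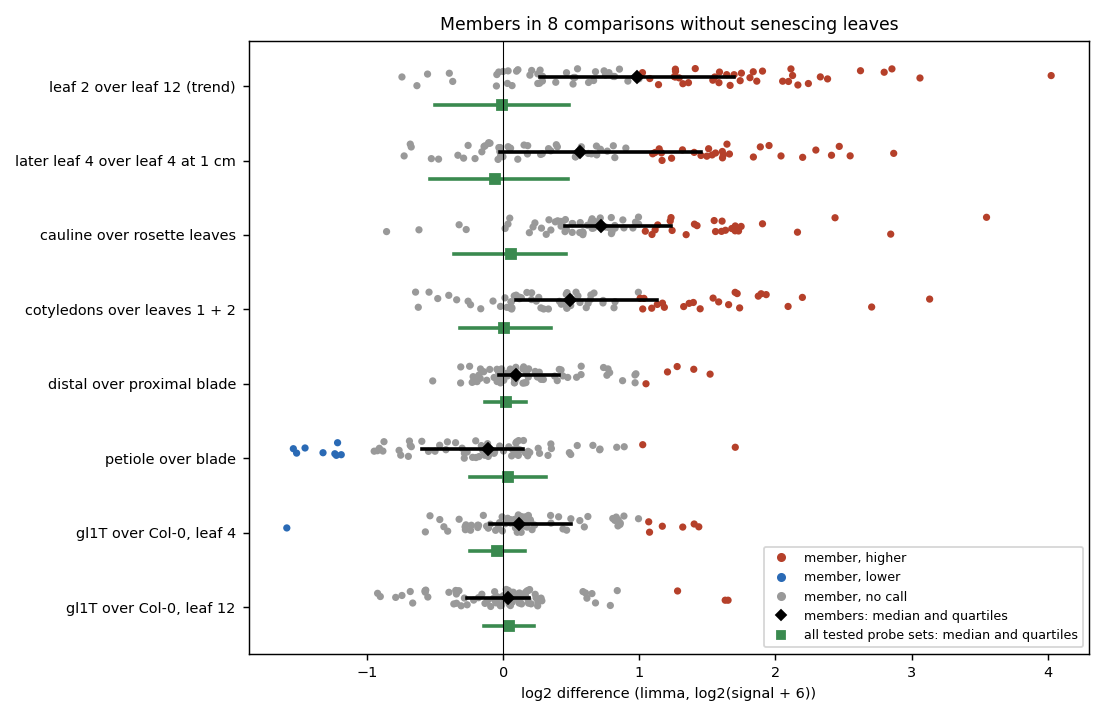
Log2 differences of the 77 members (points) in the 8 comparisons that use no senescing array, with the median and quartiles of the members (black) and of all tested probe sets (green). Members lie to the right of all tested probe sets in old rosette leaves, later leaf 4, cauline leaves and cotyledons. In the leaf 7 and gl1T comparisons the medians lie closer together. The quartiles of the members are lower in petioles (-0.598 and 0.149 against -0.241 and 0.318). Their upper quartile is higher in the distal part (0.412 against 0.171) and in gl1T leaf 4 (0.497 against 0.157).

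The gl1T leaves differed from Col-0 in few members. In leaf 4 at 1 cm, 6 were called higher and 1 lower in gl1T by limma, against 4.01% of all tested probe sets in either direction, 3.44% higher and 0.563% lower, with a median of 0.11 over the members and -0.05 over all. AT2G28400 read 66.2, 67.5 and 68.4 in gl1T and 23.4, 20.5 and 19.6 in Col-0 (1.44 ± 0.11, adjusted p = 1.05e-16). AT1G68620 (1.40 ± 0.25), AT3G13950 (1.32 ± 0.26) and AT1G13340 (1.17 ± 0.16) were also higher in gl1T. AT1G13340 read 41.5, 50.8 and 51.7 in gl1T and 17.3, 18.7 and 17.8 in Col-0. AT4G14090 was lower, at 0.57, 0.79 and 1.78 in gl1T against 21.9, 15.1 and 10.1 in Col-0 (-1.59 ± 0.23, adjusted p = 7.59e-08). The labels note soil on the Col-0 leaves of this pair and not on those of gl1T, and the 2 cannot be told apart. The ubiquitin ratio was 3.17 to 3.24 on the gl1T arrays and 3.70 to 3.98 on the Col-0 arrays. With 24 added to the signal only AT2G28400 was called, and AT1G68620 (0.62), AT3G13950 (0.78), AT1G13340 (0.78) and AT4G14090 (-0.65) were not, so these calls depend on the added constant.

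In leaf 12, 3 members were called higher and 0 lower in gl1T by limma, against 3.84% of all tested probe sets in either direction, 1.65% higher and 2.19% lower, so the share of members called (3.9%) was near that of all. Unadjusted, 11 were higher and 11 lower at a p below 0.05. AT4G00700 read 33.2, 36.8 and 44.0 in gl1T and 3.62, 10.5 and 10.99 in Col-0 (1.65 ± 0.20, adjusted p = 1.42e-09). AT1G79520 read 63.8, 56.0 and 51.2 in gl1T and 13.6, 19.5 and 10.7 in Col-0 (1.63 ± 0.22). AT4G14090 read 60.1, 55.7 and 48.7 in gl1T and 18.7, 15.4 and 23.5 in Col-0 (1.28 ± 0.23), the opposite direction to leaf 4. Without the Col-0 array of replicate 3, 5 members were called. The GAPDH 3'-to-5' ratio of the gl1T leaf 12 arrays reached 3.23, the highest of the series. The gl1T effect in leaf 4 minus that in leaf 12 was called above 0 for 5 members and below 0 for 2, against 8.23% of all tested probe sets in either direction, 5.33% above and 2.89% below, in a test added after the data were seen.

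The 3 neighbouring genes AT1G26380, AT1G26390 and AT1G26420 all had low signal outside senescing leaves, and AT1G26420 passed the filter only through the senescing set. AT1G26390 read 127, 114 and 119 in senescing leaves and averaged 26.8 ± 1.81 in leaf 4, its next set. AT1G26380 averaged 96.8 ± 6.04 in senescing leaves and 26.7 ± 5.89 in leaf 2, and AT1G26420 averaged 58.7 ± 1.54 in senescing leaves and 16.4 ± 0.70 in cotyledons. AT1G26380 and AT1G26390 were both called higher in old rosette leaves (1.84 and 1.58), in later leaf 4 (1.53 and 1.62) and in cotyledons (1.45 and 1.03). AT1G26420 was called in the same comparisons, with a mean of 11.1 in leaf 2 and 0.65 in leaf 12, both under the lowest 40th percentile of an array (17.5). In cauline leaves AT1G26380 averaged 7.25, AT1G26390 16.8 and AT1G26420 12.8. Whether their probe sets cross-react was not tested.

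The short-day and sucrose sets differ from the others in several conditions at once, so they were not compared in a test. AT4G14090 stood out there, as given above. AT1G30700 had its next-highest mean in short-day set 90, with 12.4, 10.8 and 16.2, after 125, 112 and 116 in senescing leaves, and averaged 1.56 or less in all sets outside senescing leaves and short days. AT1G79520 read 67.5, 55.8 and 63.2 in short-day set 87, but 3.27, 20.4 and 10.6 in set 89 and 5.69, 11.2 and 0.95 in set 90. AT2G25625 averaged 77.3 ± 10.0 in the sucrose set, near its leaf 2 mean of 83.5 ± 8.79.

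Of the 77 members, 48 were called in at least 1 of the 8 comparisons without senescing arrays and 29 in none. These comparisons share arrays and are not independent. The count was not made over all tested probe sets, so it only describes the members. A single comparison, later leaf against the same leaf at 1 cm, already called 24.5% of all tested probe sets in either direction. AT1G68620 was called in 7, higher in 6 and lower in petioles. The highest mean outside senescing leaves of the 29 uncalled members ran from 5.91 to 285 with a median of 23.96, so they held both dim members such as AT3G61930 and bright ones such as AT5G54870, AT4G30490 (639.9 in senescing leaves, 183 in cauline leaves) and AT2G36950 (482 in senescing leaves, 153 in cauline leaves).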

How the data were processed

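RNA of 60 leaf samples was measured on 1-colour arrays. The deposited values are MAS5 signal, an intensity per probe set on a linear scale, made with MAS5 per the submitters' processing notes, with no version or settings (not given in the sources used here). Every array had a mean of 100.01 after trimming 2% at each end, and no further normalization was done. The number of arrays limits the precision. Groups came from the titles and tissue labels. The first array of rosette leaf 6 has leaf 4 in its tissue label; it was kept with leaf 6 by its title, and moved to leaf 4 as an alternative.

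Of 22810 probe sets, 64 controls were left out. Gene symbols came from the platform annotation (13513 probe sets with 1 gene, 503 with several, 8730 with none) and biotypes and neighbours from RefSeq; all 77 members matched a RefSeq locus. The array files name no genome build, and RefSeq coordinates were used only to order the genes when neighbours were sought. Sequences, product families and promoter motifs were not used here. Signal + 6 was put on the log2 scale, and limma 3.58.1 in R 4.3.3 (lmFit, eBayes with trend) fitted all 20 sets with 40 residual degrees of freedom, with Benjamini-Hochberg adjustment over 15803 probe sets; these had a signal over the 40th percentile on all 3 arrays of at least 1 set. Adding 6 understates the change of dim probe sets. The fit was checked on simulated data.

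The members, the gene lists and the tests were chosen with earlier results of these data known. Named members were the 12 with the largest margin, the 6 brightest, up to 4 called members each way per comparison whose arrays did not overlap, those at the threshold, neighbours, and the top 10 symbol-named probe sets; further members were chosen after their values were seen. The test of gl1T effects between leaves was added after seeing the data. Alternatives were the added constant, the filter, quantile normalization, a fit of the compared sets only or without senescing arrays, the replicate number as a block, and each array left out.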

Additional observations from a re-analysis of the deposited data

Results flagged for a closer look

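For 7 of the 77 members the difference between gl1T and Col-0 was not the same in 1 cm leaf 4 and in leaf 12, by a test of the difference itself that was added after seeing the data (limma, adjusted p below 0.05 and a log2 difference of at least 1; 9.09% of the members, near the 8.23% of all tested probe sets that were called). The values are the gl1T effect in leaf 4 minus that in leaf 12. They were 2.01 for AT2G28400 (adjusted p = 1.24e-16), 1.81 for AT1G05340 (4.8e-05), 1.32 for AT1G68620 (0.00251), 1.18 for AT4G13030 (0.00305), 1.06 for AT1G26390 (0.0115), -1.17 for AT1G79520 (0.0024) and -2.87 for AT4G14090 (9.94e-11).

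AT2G28400 averaged 67.4 ± 1.10 in gl1T and 21.2 ± 2.02 in Col-0 in leaf 4 (SD, 3 arrays each), but 32.8 ± 0.97 in gl1T and 51.9 ± 5.07 in Col-0 in leaf 12. AT4G14090 averaged 1.04 ± 0.65 in gl1T and 15.7 ± 5.95 in Col-0 in leaf 4, but 54.8 ± 5.77 in gl1T and 19.2 ± 4.09 in Col-0 in leaf 12. AT1G05340 averaged 16.2 ± 4.25 in gl1T and 4.73 ± 2.95 in Col-0 in leaf 4, and 5.54 ± 0.37 in gl1T and 13.4 ± 1.79 in Col-0 in leaf 12. AT1G68620, AT4G13030 and AT1G26390 were at a mean of 17.5 or lower in all 4 sets, at or under the lowest 40th percentile of an array (17.5). The Col-0 leaf 4 was labelled as carrying soil, and the part of that in these differences was not tested.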

How the results depend on the processing

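A reversal of direction was looked for only in up to 4 called members each way per comparison, and none reversed. Fits with a single array left out were not part of that check. The median over the members in gl1T leaf 12, 0.04, was -0.04 without replicate 2. Outside the petiole comparison no alternative gave more members lower than higher (179 settings over all comparisons). The number of members was 165 with a margin of 1 and 38 with a margin of 2, and 74 to 80 when each senescing array was left out. With 1 added to the signal in place of 6, called members were 39 in cauline leaves (38 higher), 19 in petioles (15 lower), 9 in the distal part, 18 in gl1T leaf 4 and 12 in gl1T leaf 12. Some lower calls then appeared, with 44 higher and 2 lower in old leaves, 34 and 3 in later leaf 4, and 29 and 2 in cotyledons. With 24, called members were 19 in old rosette leaves, 12 in later leaf 4, 11 in cauline leaves and 8 in cotyledons. Of all tested probe sets, 15.3%, 16.4%, 9.3% and 6.99% were called there. In gl1T leaf 4 and gl1T leaf 12 there was 1 member each (2.29% and 2.17% of all). In petioles and in the distal part there were 0 by limma (3.39% and 0.152% of all). At an unadjusted p below 0.05 there were 11 higher and 26 lower in petioles and 18 higher and 0 lower in the distal part, counts not made over all tested probe sets. Against leaf 2 alone, 11 were called in cauline leaves. Leaving out arrays gave 35 to 39 calls in old leaves, 27 to 31 in later leaf 4, 25 to 29 in cauline leaves, 20 to 25 in cotyledons, 8 to 13 in petioles, 5 to 8 in the distal part, 6 to 9 in gl1T leaf 4 and 3 to 6 in gl1T leaf 12. In petioles AT1G55760 (0.84) and AT1G51890 (-0.95) missed a difference of 1 without replicate 3, as did AT1G55760 under quantile normalization (0.92; 1 member higher and 9 lower). Sets share replicate numbers, but same-numbered arrays did not deviate together (correlations of -0.081 to 0.078), so no pairing by number was seen. A single pair of sets was looked at per comparison, and such correlations cannot exclude shared plants or batches. With the replicate number as a block, calls were 37, 28, 25, 10, 5, 7, 3 and 24 in old leaves, later leaf 4, cauline leaves, petioles, the distal part, gl1T leaf 4, gl1T leaf 12 and cotyledons, as without it. Most members were dim outside senescing leaves, so small differences between those sets were near the limit of the signal. A filter that did not use the senescing set tested 51 members in the 8 comparisons. Their counts stand beside each comparison, except those of gl1T, which were 7 in leaf 4 and 3 in leaf 12 (4.05% and 3.91% of all probe sets tested under that filter). This filter was not applied to cauline leaves against leaf 2 alone or to the gl1T effects between leaves.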
